A study of Mus musculus with 13 samples.

Results

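The IL-6 and CNTF family comprises cytokines that signal through gp130, and 9 of its genes were followed here through nerve injury. They were taken by name from the table of 40787 genes. The ligands were Cntf, Clcf1, Lif, Osm, Il6, and Il11, and the receptor subunits were Il6st, which encodes gp130, Lifr, and Osmr. All 9 were in the table. The data are RNA-seq libraries of 13 sciatic nerves of mice labelled C57BL/6 and obtained by repeated backcrossing, 1 library per nerve. RaptorKO mice carried homozygous floxed Rptor alleles and a tamoxifen-inducible Cre transgene, which recombines them in Schwann cells (SCs), and thereby lose Raptor, a subunit of the mTORC1 kinase complex. Controls carried the same floxed alleles without Cre. Both genotypes received tamoxifen at 2 months of age, and 1 sciatic nerve was crushed 2 months later. Nerves were collected at 5 dpc (days post-crush), the injured ones from the stretch distal to the crush and the contralateral ones from the other leg, which was not crushed. The groups were control contralateral (n = 3), RaptorKO contralateral (n = 4), control injured (n = 3), and RaptorKO injured nerves (n = 3). The epineurium, the outer sheath, had been removed, but SCs were not separated from the other cells of the nerve.

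The cytokines of this family act on a receptor that contains gp130 in every case and differ in its other chains. IL-6 and IL-11 use gp130 alone, each presented by an alpha receptor of its own, whereas LIF pairs gp130 with LIFR. CNTF and the cytokine made by Clcf1 act through gp130 and LIFR together with the CNTF receptor alpha chain, and oncostatin M, the product of Osm, acts through gp130 with OSMR or LIFR. Receptor binding activates Janus kinases and STAT3, and SOCS3 limits the signal. CNTF is known as a product of myelinating SCs that is released when a nerve is damaged, and LIF and IL-6 as cytokines of injured nerves that act on SCs, macrophages, and neurons.

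Library totals ranged from 8200458 to 13581775 counts, and values are given as CPM (counts divided by the library total and multiplied by 1000000) scaled with TMM factors. Rptor was lower in RaptorKOs in contralateral nerves (22.1 to 28.0 CPM against 43.7 to 52.5) and in injured nerves (23.2 to 28.6 CPM against 35.1 to 48.6). Myelin markers identified the tissue, with summed levels of 4 genes (Mbp, Pmp22, Prx, and Mag) of 41900 to 52400 CPM in contralateral nerves, and markers of skeletal muscle reached no more than 1.46 CPM. Adipocyte markers were uneven, with sums of 133 CPM in RaptorKO contralateral 3, 27.3 CPM in control contralateral 3, and 19.6 CPM in control injured 3. The other libraries held at most 10.2 CPM of them. Both libraries of control replicate 3 stood apart in sex-linked genes, with 15017 and 14462 counts of Xist against 4 to 17 in the others. Calls of members that were lost without them are given with and without them. By the study's description each library of a group was from a separate mouse, and the contralateral nerves corresponded to the injured ones, although RaptorKO contralateral nerves outnumber the injured ones by 1. Testing required 50 counts in 2 or more libraries of a comparison, and called genes had an adjusted p under 0.05 and changed over 1.2-fold.

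The members lie on 6 chromosomes of GRCm38 (GENCODE M21). Cntf (12763660 to 12765632, minus strand) and Clcf1 (4214238 to 4223490) are on chromosome 19, Osm (4236420 to 4241026) and Lif (4257557 to 4272514) on chromosome 11, and Osmr (6813577 to 6874969, minus strand) and Lifr (7090614 to 7197489) on chromosome 15. Il6 is on chromosome 5 (30013114 to 30019981), Il11 on chromosome 7 (4772373 to 4782859, minus strand), and Il6st on chromosome 13 (112464070 to 112510086). Cntf is a short gene, with 1073 bases of exons in 2 blocks. Of these, 847 bases (78.9%) are also exons of Zfp91, a gene on the same strand, so reads there could be assigned to either gene. Clcf1 shares 311 of its exon bases (8.2%) with AC109138.7, which was not analysed here. The 5′ flanks are shown for Lif and Cntf, the ligands whose levels differed between genotypes, as the 250 bases before the RefSeq start (GRCm38.p6). Both sequences run 5′ to 3′ on the strand of the gene, and capitals mark the letters TGANTCA, to which AP-1 dimers of Jun and Fos proteins bind.
Lif, chr11:4257318-4257567, plus strand: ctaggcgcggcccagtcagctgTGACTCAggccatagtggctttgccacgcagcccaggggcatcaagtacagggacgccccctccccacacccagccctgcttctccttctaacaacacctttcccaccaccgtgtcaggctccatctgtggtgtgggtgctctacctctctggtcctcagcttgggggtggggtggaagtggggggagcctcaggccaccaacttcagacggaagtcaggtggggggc
Cntf, chr19:12765633-12765882, minus strand: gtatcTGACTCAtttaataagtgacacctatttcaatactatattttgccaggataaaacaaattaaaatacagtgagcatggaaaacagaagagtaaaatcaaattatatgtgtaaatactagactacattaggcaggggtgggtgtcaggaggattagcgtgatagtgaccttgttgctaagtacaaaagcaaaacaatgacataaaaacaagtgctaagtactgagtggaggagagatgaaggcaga

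The match began 228 bases before the start in Lif and 245 bases before it in Cntf, and both held the same 7 letters. Promoters of 7 members were in the RefSeq table, with 9 starts between them, and those of Clcf1 and Osm were not. In the window from 250 bases before to 50 bases after the start, TGANTCA, which reads the same way on either strand, was present in 5 of the 7 members (Il6, Lif, Cntf, Il11, and Osmr). It was present in 7.81% of 32851 mouse promoters of the same length. That share is per promoter, whereas a member was counted if any of its starts had a match. The match of Il6 began 249 bases before the start, and that of Osmr lay after it. TTCNNNGAA, the letters to which STAT dimers bind, also self-complementary, were in 0 of the 7 members and in 8.30% of all promoters. These matches describe the letters only, and no binding was measured.

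The ligand that dominated was a different one in contralateral and injured nerves. To compare genes, CPM were divided by the length of the exons in kb, and each ligand was expressed as a share of the sum over the 6 ligands. Cntf made up 99.3% to 99.4% of this sum in control contralateral nerves and 98.4% to 98.6% in RaptorKO contralateral nerves. After crush, Clcf1 made up 65.9% to 68.3% in controls and 66.0% to 77.1% in RaptorKOs, and Cntf 19.3% to 24.6% and 14.7% to 21.1%. Lif contributed 8.51% to 10.6% in control injured and 6.03% to 7.001% in RaptorKO injured nerves, so the genotypes did not overlap. The sum itself was 824 to 968 CPM per kb in control contralateral nerves, 341 to 530 in RaptorKO contralateral nerves, and 49.0 to 78.2 in the 6 injured nerves. When each gene was divided by the mean length of its protein-coding transcripts instead, Clcf1 held 86.3% to 91.7% of the sum in injured nerves and Cntf 5.11% to 9.45%, while in contralateral nerves Cntf held 96.98% to 99.15%.

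**Figure D1:**
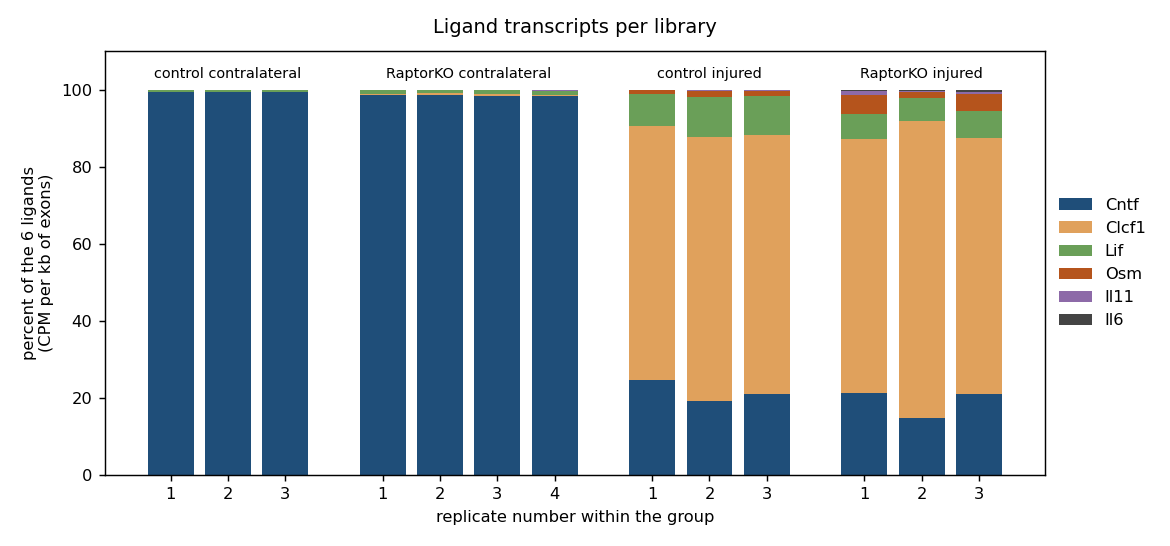
Share of each of the 6 ligand genes, in percent of their summed CPM per kb of exons (y axis from 0), in each of the 13 libraries (x axis, replicate number within the 4 groups). Cntf fills 98.4% to 99.4% of every contralateral bar, and Clcf1 fills 65.9% to 77.1% of every injured bar.

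After crush in controls, 6 members passed the count filter and all 6 were called, 4 higher (Clcf1, Lif, Il6st, and Osmr) and 2 lower (Cntf and Lifr). Calls were common in this comparison, covering 65.3% of 12430 tested genes, with 32.4% higher and 32.9% lower. In RaptorKOs, 6 of 7 tested members were called after crush, 4 higher (Clcf1, Osm, Osmr, and Il6st) and 2 lower (Cntf and Lifr). Osm passed the filter only through the injured nerves, in which it was high, and without it 5 of 6 were called, 3 of them higher. Of 12515 genes 58.9% were called, 30.5% higher and 28.5% lower. The genotypes differed in contralateral nerves in 1 of 6 tested members, Cntf, which was lower in RaptorKOs. There, 10.2% of 11878 genes were called, 5.68% lower and 4.49% higher. In injured nerves, 2 of 7 tested members were called, Lif lower and Lifr higher in RaptorKOs, against 8.54% of 12040 genes, with 4.44% lower and 4.09% higher. The interaction, which compares the crush effect between genotypes, was called for 1 of 7 members, Lifr, and for 2.47% of 12851 genes. The median log2 fold change of the tested members was 0.39, 0.55, 0.02, 0.07, and 0.07 in these 5 comparisons in turn, and that of all tested genes 0.00, 0.03, 0.01, 0.00, and -0.01. Both crush comparisons reuse the contralateral nerves of the contralateral comparison, and both genotype comparisons reuse nerves of the crush comparisons, so their values are not independent.

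**Figure D2:**
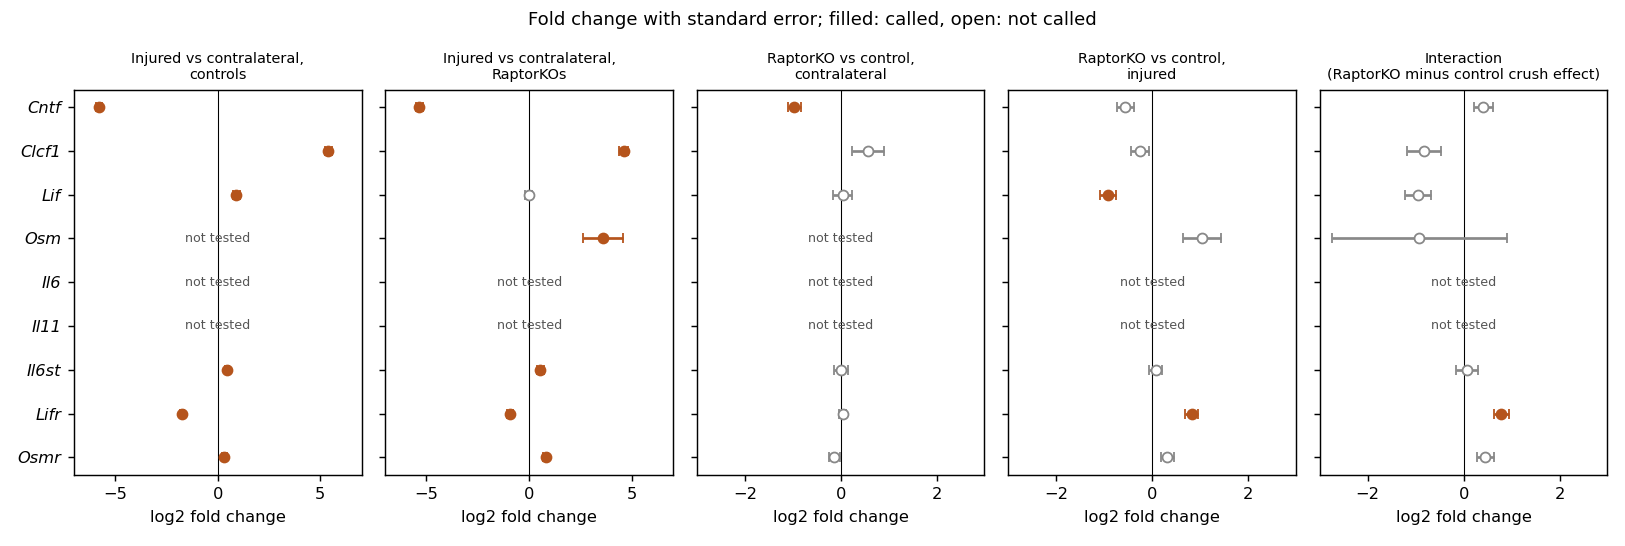
Log2 fold change (x axis) with its standard error for each member (y axis) in the 5 comparisons, from edgeR's quasi-likelihood fits. Filled symbols passed the adjusted p and fold limits and open symbols did not, and the x axis spans a wider range in the crush panels. Cntf at -5.78 and -5.34 and Clcf1 at 5.39 and 4.59 moved farthest after crush, and Lif at -0.91 and Lifr at 0.82 were the members called between injured genotypes.

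Cntf was the member with the widest range, and its 4 groups did not overlap. In control contralateral nerves it stood at 965, 1031, and 879 CPM (959 ± 76.2, SD, n = 3), and in RaptorKO contralateral nerves at 487, 560, 360, and 526 CPM (483 ± 87.5, n = 4). Injured controls held 19.7, 16.0, and 17.6 CPM (17.8 ± 1.89, n = 3), and injured RaptorKOs 12.9, 11.95, and 10.97 CPM (11.9 ± 0.954, n = 3). Every RaptorKO library thus lay below every control library in both kinds of nerve. Crush lowered Cntf 54.9-fold in controls (log2 fold change -5.78, SE 0.14, adjusted p = 5.01e-11) and 40.6-fold in RaptorKOs (-5.34, SE 0.18, adjusted p = 7.39e-09). In contralateral nerves it was 1.96-fold lower in RaptorKOs (-0.97, SE 0.14, adjusted p = 0.00174), and this call held in all 16 alternative analyses (log2 fold change -1.05 to -0.85). In injured nerves the difference was -0.56 (SE 0.17) and missed the threshold (adjusted p = 0.0736), but passed it with edgeR's exact test (adjusted p = 0.0491) and with all 13 libraries in 1 fit (adjusted p = 0.0330). The crush effects of the genotypes differed by 0.41 (SE 0.20, adjusted p = 0.387).

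SC markers were lower in RaptorKO contralateral nerves, myelin markers were lower after crush, and several other marker lists were higher in RaptorKO contralateral nerves. The 4 myelin genes summed to 47410 to 52400 CPM in control contralateral and 41900 to 50410 in RaptorKO contralateral nerves, where 0 of 4 were called by edgeR or DESeq2 and 0 had an unadjusted p under 0.05 (median log2 fold change -0.04). The 3 SC markers Sox10, S100b, and Erbb3 summed to 1782 to 1813 CPM in controls and 1036 to 1291 in RaptorKOs, with 2 of 3 called lower (median -0.44). Fibroblast markers were higher in RaptorKO contralateral nerves for 3 of 5 genes (sums of 8253 to 10800 CPM against 5708 to 6500, median 0.84). Of 5 tested mast cell genes 2 were called higher (80.5 to 139 CPM against 11.9 to 58.1, median 2.10), and of 2 tested erythrocyte genes 1 (85.2 to 148 CPM against 43.9 to 81.5, median 0.89). However, 4 of the mast cell genes, with the 2 called ones among them, passed the filter only through the RaptorKOs, in which they were high. Without these, 0 of 1 mast cell gene was called. DESeq2 called 0 of the 5 and edgeR's exact test 3. After crush the myelin genes fell to 1059 to 1391 CPM in controls and 1005 to 1345 in RaptorKOs, with 4 of 4 called lower in each genotype. None of these markers was at 0 in any group, and their part in the differences of Cntf was not tested. In whole nerves, fewer cells of a type and less RNA per cell cannot be told apart. Zfp91, which shares exons with Cntf, held 240 to 251 CPM in control contralateral and 207 to 269 CPM in RaptorKO contralateral nerves (log2 fold change -0.12, SE 0.10, adjusted p = 0.543), so the 2 groups overlapped. It fell after crush by 0.86 in controls and by 0.81 in RaptorKOs on the log2 scale, to between 118 and 143 CPM in the injured nerves.

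**Figure D3:**
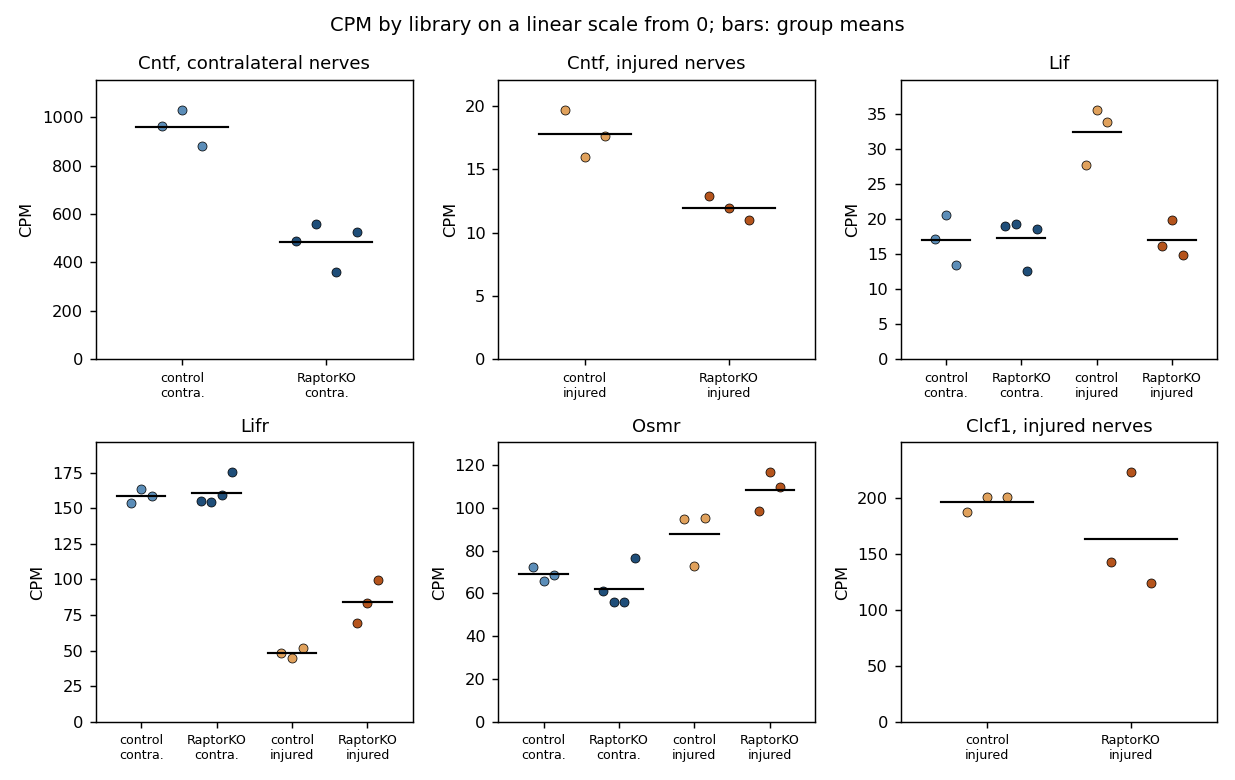
CPM (y axes from 0, on a different scale in each panel) of Cntf, Lif, Lifr, Osmr, and Clcf1 in each library, with horizontal lines at the group means. RaptorKO contralateral nerves hold 360 to 560 CPM of Cntf against 879 to 1031 in controls, and RaptorKO injured nerves hold 14.9 to 19.9 CPM of Lif against 27.7 to 35.6 in controls.

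Clcf1 encodes a ligand that acts on the CNTF receptor. Control contralateral nerves held 6.37, 4.65, and 2.64 CPM (4.55 ± 1.87, n = 3), and RaptorKO contralateral nerves 6.83, 8.24, 6.96, and 4.51 CPM (6.64 ± 1.55, n = 4). After crush it stood at 187, 201, and 201 CPM in controls (196 ± 7.58, n = 3) and at 143, 223, and 124 CPM in RaptorKOs (163 ± 52.3, n = 3). The injured libraries of both genotypes were far above all contralateral ones, while the genotypes overlapped in both kinds of nerve. The rise was 42.0-fold in controls (log2 fold change 5.39, SE 0.19, adjusted p = 3.93e-10) and 24.1-fold in RaptorKOs (4.59, SE 0.24, adjusted p = 8.69e-08). The genotypes differed by 0.57 in contralateral nerves (SE 0.33, adjusted p = 0.3205, with 0.30 without control contralateral 3 and 0.88 without control contralateral 1), by -0.25 in injured nerves (SE 0.19, adjusted p = 0.510), and in the crush effect by -0.83 (SE 0.36, adjusted p = 0.301). RaptorKO injured 2 was the library that set this spread. Without it, Clcf1 was lower in RaptorKO injured nerves by -0.55 (adjusted p = 0.0129) and was called. The same library had the lowest macrophage marker sum of the injured nerves, 1509 CPM against 2396 to 3167 in the others (8 genes). It also had the highest sums of its group for SC markers (923 CPM against 795 and 679) and repair SC markers (2290 against 1950 and 1706). Its endothelial (496 against 321 and 366) and pericyte and smooth muscle sums (1027 against 720 and 755) were the highest too. The part of these cells in the spread of Clcf1 was not tested.

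The list of other ligands held 5 genes, all low. Ctf1, which encodes cardiotrophin-1, reached at most 61 counts in a library, Ebi3 at most 49, Il27 at most 13, and Ctf2 at most 9, and Il31 had no count in any library. Markers of repair SCs moved with Clcf1: 5 of the 6 genes Jun, Ngfr, Shh, Olig1, Gdnf, and Sox2 were tested and all 5 were called higher after crush in both genotypes. Gdnf in both genotypes and Shh in RaptorKOs passed the filter only through the injured nerves, and of the others 4 of 4 rose in controls and 3 of 3 in RaptorKOs. Their sum went from 91.6 to 128 CPM in contralateral nerves to 1706 to 2481 CPM in injured nerves. Their part in the rise of Clcf1 was not tested.

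Lif was called higher after crush in controls and lower in RaptorKOs than in controls among injured nerves. It stood at 17.1, 20.6, and 13.5 CPM in control contralateral nerves (17.0 ± 3.54, n = 3) and at 19.0, 19.2, 12.6, and 18.6 CPM in RaptorKO contralateral nerves (17.3 ± 3.19, n = 4). Injured controls held 27.7, 35.6, and 33.9 CPM (32.4 ± 4.16, n = 3), and injured RaptorKOs 16.2, 19.9, and 14.9 CPM (17.0 ± 2.59, n = 3). The injured controls were therefore above every other library, and the remaining 3 groups overlapped. Lif rose 1.86-fold after crush in controls (log2 fold change 0.90, SE 0.17, adjusted p = 0.000717). In RaptorKOs the change of -0.03 was not called (SE 0.19, adjusted p = 0.895). RaptorKO injured nerves held 1.88-fold less Lif than control injured nerves (-0.91, SE 0.17, adjusted p = 0.00796), and all 15 alternative analyses kept this call (-1.05 to -0.82, adjusted p up to 0.0436). The test of the difference between the crush effects gave -0.95 (SE 0.27, adjusted p = 0.0823) and missed the threshold, which it passed with DESeq2 (adjusted p = 0.0256) and without RaptorKO contralateral 3 (adjusted p = 0.0336). SC markers summed to 1120 to 1194 CPM in control injured and 679 to 923 CPM in RaptorKO injured nerves. Of the 3, S100b was called lower (-1.09), and Sox10 (-0.298) and Erbb3 (-0.285) were not, where 4.44% of all genes were called lower. Of the repair SC markers 0 of 5 tested were called by edgeR, DESeq2, or the exact test (median -0.225), and 1 had an unadjusted p under 0.05. The part of these cells in the difference of Lif was not tested.

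Osm, a cytokine made largely by macrophages and neutrophils, was near the limit of detection in contralateral nerves and higher after crush. Counts in control contralateral nerves were 0, 3, and 0, and in RaptorKO contralateral nerves 1, 0, 0, and 13. Injured controls held 17, 30, and 26 counts (1.55, 2.75, and 2.54 CPM) and injured RaptorKOs 70, 36, and 54 counts (6.22, 2.83, and 4.94 CPM). Injured nerves were above the contralateral nerves of the same genotype, and the lowest injured RaptorKO was just above the highest injured control. Summed over libraries, the level was 25.4 times as high in injured as in contralateral controls (95% Poisson interval 8.36 to 126, counting error only). In RaptorKOs, Osm passed the filter only through the injured nerves, in which it was high, so its call there (log2 fold change 3.599, SE 0.97, adjusted p = 0.00790) was favoured by the filter, and it was not called with DESeq2 (adjusted p = 0.0910). With no count filter the values were 3.58 in RaptorKOs (adjusted p = 0.00157) and 4.54 in controls (adjusted p = 7.68e-06), where Osm missed the filter. RaptorKO contralateral 4 held 13 of the 14 counts in the contralateral RaptorKOs, and without it the log2 fold change was 6.80 (adjusted p = 0.000110). Between injured genotypes the difference was 1.03 (SE 0.40, adjusted p = 0.149), and with no count filter it was 1.04 (adjusted p = 0.111). Osm passed the filter here only through the RaptorKOs, and without RaptorKO injured 2 its value was 1.30 (adjusted p = 0.0493). The crush effects differed by -0.92 (SE 1.83, adjusted p = 0.867), a value that turned to 2.28 without RaptorKO contralateral 4 and was -4.03 without control contralateral 2.

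Macrophage markers were higher in the injured groups as well. All 8 genes of the list were called higher in both genotypes, of which 5 in controls and 6 in RaptorKOs passed the filter in both kinds of nerve, and their sum went from 139 to 288 CPM in contralateral to 1509 to 3167 CPM in injured nerves. In contralateral nerves 3 of 6 tested genes were higher in RaptorKOs. Between the injured genotypes 0 of the 8 were called by edgeR or DESeq2, and 0 had an unadjusted p under 0.05 (median 0.13), although RaptorKO injured 2, lowest for Osm among the RaptorKOs, was also lowest for these markers. RaptorKO contralateral 4, the contralateral library with 13 counts of Osm, had the highest macrophage sum of its group, 288 CPM against 220 to 272. The part of these cells in the values of Osm was not tested.

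Il6 was at the limit of detection. All 3 control contralateral nerves had 0 counts, for which a limit of 3 counts over the group corresponds to 0.0896 CPM, and the RaptorKO contralateral nerves had 0, 0, 0, and 4 counts. Injured controls had 1, 1, and 0 counts, and injured RaptorKOs 7, 10, and 9 (0.622, 0.786, and 0.823 CPM). Injured RaptorKOs were thus above every other library. Pooled over libraries, Il6 was 11.9 times as high in injured RaptorKOs as in injured controls (95% Poisson interval 2.99 to 104, counting error only), and the groups did not overlap (p = 0.1 in an exact permutation test, two-sided, which cannot give less with 3 libraries per group). It missed the count filter in every comparison, and with no filter the log2 fold change between injured genotypes was 3.39 (adjusted p = 0.139). Against RaptorKO contralateral nerves, injured RaptorKOs were 7.58 times as high (interval 2.63 to 29.9, from 26 and 4 counts). The 4 counts were all in RaptorKO contralateral 4, the library that also held most of the contralateral Osm counts.

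Il11, the ligand of the IL-11 receptor, was low throughout and lower after crush. Control contralateral nerves held 11, 23, and 17 counts and RaptorKO contralateral nerves 12, 21, 14, and 21. Injured controls held 1, 3, and 5 counts and injured RaptorKOs 14, 2, and 4. In controls the groups did not overlap (p = 0.1 in the same two-sided exact permutation test), and the pooled level was 5.42 times as high in contralateral nerves (95% Poisson interval 2.65 to 12.53). The ratio in RaptorKOs was 2.92 (interval 1.75 to 5.07), with p = 0.0286 in the exact permutation test, which cannot give less with 4 and 3 libraries, although RaptorKO injured 1, at 1.24 CPM, lay just under the lowest contralateral RaptorKO at 1.28 CPM. Il11 missed the filter in all comparisons. With no count filter its log2 fold change after crush was -2.36 in controls (adjusted p = 0.0226) and -1.52 in RaptorKOs (adjusted p = 0.116).

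**Figure D4:**
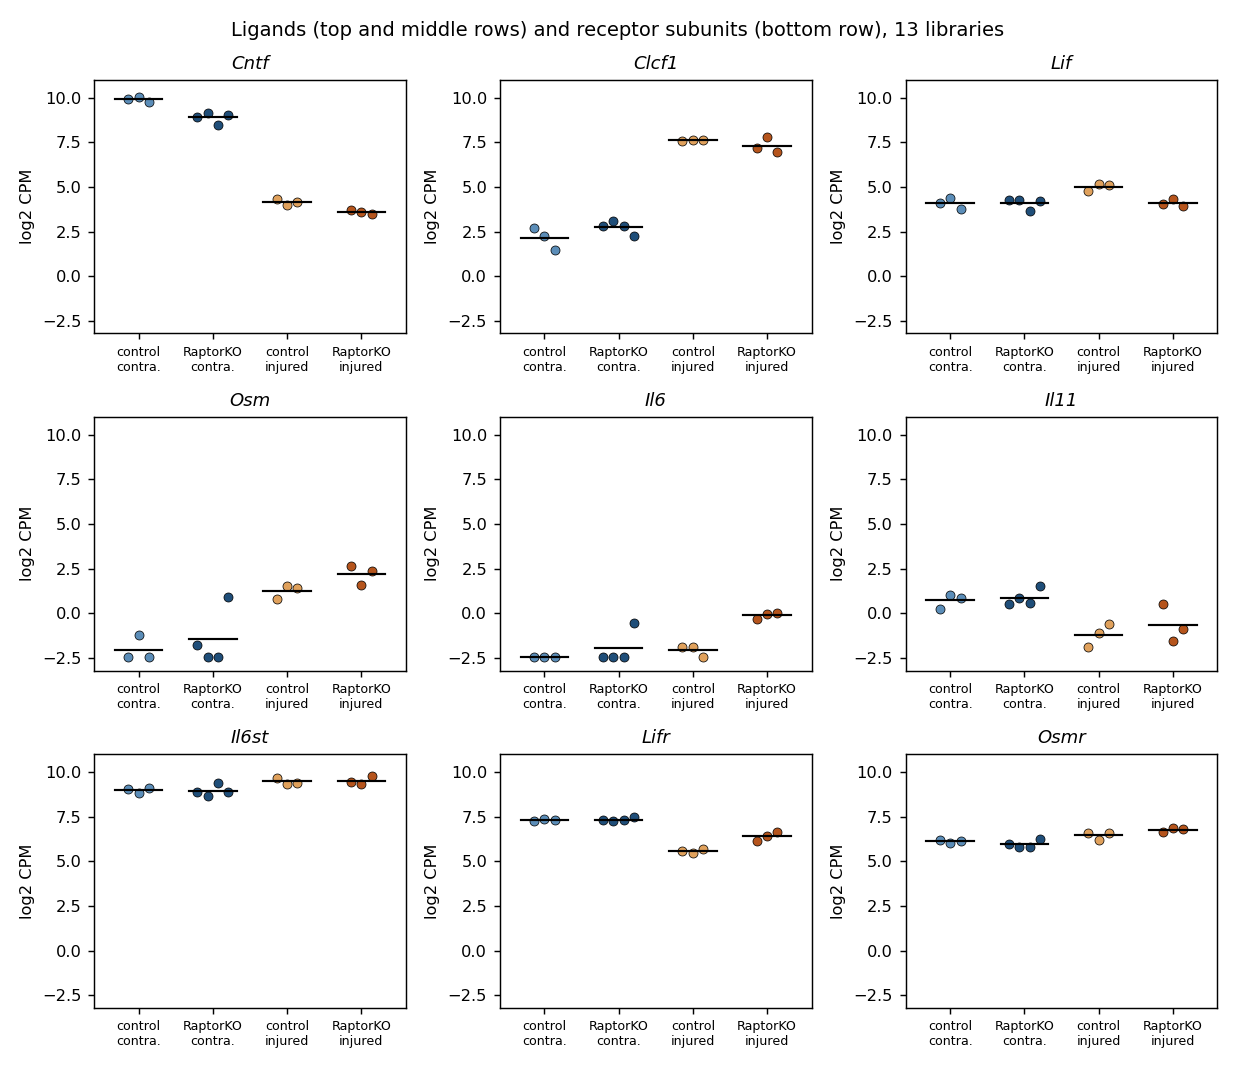
Log2 CPM (y axis, the same in all panels, with a prior count of 2) of the 9 members in the 13 libraries, with horizontal lines at the group means. Cntf and Clcf1 exchange places between contralateral and injured nerves, and the receptor subunits in the bottom row span a narrower range, from 5.48 to 9.75.

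The 3 receptor subunits were well detected in all nerves. Il6st, which encodes the shared subunit gp130, held 535, 449, and 540 CPM in control contralateral nerves (508 ± 51.4, n = 3) and 469, 406, 659, and 477 CPM in RaptorKO contralateral nerves (503 ± 109, n = 4). After crush it held 807, 646, and 672 CPM in controls (708 ± 86.2, n = 3) and 698, 648, and 863 CPM in RaptorKOs (736 ± 113, n = 3). Crush raised it 1.37-fold in controls (log2 fold change 0.45, SE 0.12, adjusted p = 0.00511), and the groups did not overlap. The rise in RaptorKOs was 0.55 (SE 0.16, adjusted p = 0.0147), with RaptorKO contralateral 3 inside the injured range, and it missed the threshold without RaptorKO injured 3 (0.41, adjusted p = 0.0669). Genotypes differed by 0.00 in contralateral (SE 0.15, adjusted p = 0.993) and by 0.07 in injured nerves (SE 0.14, adjusted p = 0.837).

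Lifr, the chain shared by LIF, CNTF, and the Clcf1 product, went the other way. Levels were nearly the same in the contralateral nerves of both genotypes, at 154, 164, and 158 CPM in controls (159 ± 4.98, n = 3) and 155, 154, 159, and 175 CPM in RaptorKOs (161 ± 9.75, n = 4). Injured controls held 48.2, 44.6, and 51.7 CPM (48.2 ± 3.56, n = 3), and injured RaptorKOs 69.7, 83.6, and 99.9 CPM (84.4 ± 15.1, n = 3). Both injured groups were below all contralateral nerves, and every injured RaptorKO was above every injured control. Crush lowered Lifr 3.35-fold in controls (log2 fold change -1.74, SE 0.09, adjusted p = 7.48e-09) and 1.91-fold in RaptorKOs (-0.94, SE 0.12, adjusted p = 8.15e-05). In injured nerves it was 1.77-fold higher in RaptorKOs (0.82, SE 0.14, adjusted p = 0.00489), and all 15 alternatives kept this call (0.69 to 0.94, adjusted p up to 0.0341). The crush effects differed between genotypes by 0.79 (SE 0.15, adjusted p = 0.0149). This interaction narrowly missed the threshold without control injured 2 (0.73, adjusted p = 0.0501) and without both libraries of control replicate 3 (0.84, adjusted p = 0.0518). In contralateral nerves the genotypes differed by 0.04 (SE 0.08, adjusted p = 0.798).

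Markers of several other cell types were also higher in injured RaptorKOs. The 4 endothelial genes Pecam1, Cdh5, Kdr, and Emcn summed to 181 to 277 CPM in control injured and 321 to 496 CPM in RaptorKO injured nerves, and 4 of 4 were called higher (median log2 fold change 0.81). Of the 4 pericyte and smooth muscle genes, 3 were called higher (median 1.17), with sums of 388 to 490 CPM against 720 to 1027. In contralateral nerves 0 of 4 were called on either list by edgeR or DESeq2 (medians 0.02 and 0.14), although 2 pericyte and smooth muscle genes had an unadjusted p under 0.05, and for the interaction 1 of 4 was called on each. After crush in controls, 3 of 4 endothelial genes fell (median -0.72). Mast cell markers were higher in injured RaptorKOs for 4 of 5 tested genes (sums of 103.5 to 195 CPM against 8.44 to 52.3, median 2.33), and fibroblast markers for 2 of 5 (6520 to 9743 CPM against 5072 to 7253, median 0.69). Both tested erythrocyte genes were called higher (25.1 to 44.2 CPM against 2.28 to 14.4), having passed the filter only through the RaptorKOs. DESeq2 called 1 mast cell, 1 fibroblast, and 1 erythrocyte gene, and edgeR's exact test 5, 2, and 2. None of the genes of these lists was at 0 in any group, and their part in the values of Lifr and Lif was not tested. Over the 13 libraries, the genes whose log2 CPM were most like those of Lifr were Sparcl1 (Pearson r = 0.99), Rsad2 (0.98), and Car4 (0.98), out of 12851 genes.

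Osmr, which encodes a chain of receptors for oncostatin M and IL-31, was called higher after crush. Control contralateral nerves held 72.3, 65.9, and 68.7 CPM (69.0 ± 3.19, n = 3), and RaptorKO contralateral nerves 61.0, 56.0, 55.8, and 76.4 CPM (62.3 ± 9.73, n = 4). Injured controls held 95.0, 72.7, and 95.4 CPM (87.7 ± 12.96, n = 3), and injured RaptorKOs 98.4, 117, and 110 CPM (108 ± 9.24, n = 3). Injured nerves lay above contralateral ones of the same genotype, in controls by a margin of less than 1 CPM between control injured 2 and control contralateral 1. The rise was 0.80 in RaptorKOs (SE 0.13, adjusted p = 0.000306) and 0.32 in controls (SE 0.11, adjusted p = 0.0248). The call in controls was lost without control contralateral 2 (adjusted p = 0.0889), control contralateral 3 (0.0647), control injured 1 (0.0531), or control injured 3 (0.0637), and without both libraries of control replicate 3 (0.132). All injured RaptorKOs exceeded all injured controls, but the difference of 0.32 (SE 0.13) was not called (adjusted p = 0.172). The contralateral difference of -0.13 (SE 0.12, adjusted p = 0.556) and the interaction of 0.45 (SE 0.18, adjusted p = 0.248) were not called either.

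Of the alpha receptors, which confer ligand specificity, 3 of 3 tested genes were called lower after crush in controls and 2 of 3 in RaptorKOs. The share of all tested genes called lower was 32.9% in controls and 28.5% in RaptorKOs. Cntfr passed the filter in both genotypes only through the contralateral nerves, in which it was high. Without it, 2 of 2 were called lower in controls and 1 of 2 in RaptorKOs. Cntfr, the CNTF receptor alpha chain, went from 28.8 ± 9.33 to 3.91 ± 1.65 CPM (log2 fold change -2.91, SE 0.32, adjusted p = 6.05e-06), Il11ra1, the IL-11 receptor, from 57.4 ± 6.32 to 22.2 ± 6.25 CPM (-1.39), and Il6ra, the IL-6 receptor, from 96.2 ± 9.30 to 75.7 ± 10.9 CPM (-0.37). In RaptorKOs Cntfr (-3.44, SE 0.50, adjusted p = 0.000160) and Il11ra1 (-0.97, adjusted p = 0.00209) were called lower, and the change of Il6ra was -0.11 (adjusted p = 0.531). Il6ra was lower in RaptorKO than in control contralateral nerves, at 66.4 ± 12.6 CPM (-0.52, SE 0.15, adjusted p = 0.0494). Il11ra1 was higher in RaptorKO than in control injured nerves, at 37.9 ± 4.32 CPM (0.79, SE 0.20, adjusted p = 0.0292). For the interaction 0 of 4 tested genes were called by edgeR or DESeq2, and 0 had an unadjusted p under 0.05. Il27ra, which missed the filter in both crush comparisons, went the other way. It held 0.391 to 2.48 CPM in contralateral and 3.29 to 5.82 CPM in injured nerves. Il11ra2 and Il31ra reached no more than 1 and 7 counts in a library.

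Downstream of the receptors, the 9 kinases, STATs, and adaptors were all tested. After crush 4 rose and 2 fell in each genotype, where 65.3% of all tested genes were called in controls and 58.9% in RaptorKOs. In controls the farthest were Gab1, an adaptor (-1.70), and the kinases Jak2 (-0.83), Jak1 (0.72), and Tyk2 (0.54), and in RaptorKOs Gab1 (-1.34), Jak1 (0.69), and the adaptor Grb2 (0.54). Stat3, the main transducer of gp130, rose by 0.50 in controls (SE 0.09, adjusted p = 0.000439) and by 0.43 in RaptorKOs (SE 0.09, adjusted p = 0.00219). Between genotypes, Jak2 alone was called, lower in RaptorKO contralateral nerves (-0.58, SE 0.10, adjusted p = 0.00605), and 0 of 9 were called by edgeR or DESeq2 in injured nerves or for the interaction, where 0 genes and 1 gene had an unadjusted p under 0.05.

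Among 13 feedback inhibitors, 8 rose and 3 fell of 12 tested in controls, and 5 rose and 2 fell of 12 tested in RaptorKOs. Calls in either direction covered 65.3% of all tested genes in controls (32.4% higher) and 58.9% in RaptorKOs (30.5% higher). Socs3, which is induced by STAT3 and blocks gp130, went from 16.7 ± 2.21 to 67.2 ± 7.69 CPM in controls (log2 fold change 1.99, SE 0.14, adjusted p = 1.32e-07) and from 14.99 ± 4.56 to 74.3 ± 13.3 CPM in RaptorKOs (2.29, SE 0.21, adjusted p = 5.89e-06). In controls the others that rose farthest were the phosphatase gene Ptpn6 (2.85), Socs1 (2.39), which passed the filter only through the injured nerves, and Socs2 (0.89). Of the inhibitors 0 of 12 were called between contralateral genotypes, 0 of 13 between injured genotypes, and 0 of 13 for the interaction, by edgeR and by DESeq2. Unadjusted p were under 0.05 for 2, 1, and 0 genes in turn. For Socs3 the genotypes differed by 0.16 in injured nerves (SE 0.15, adjusted p = 0.614).

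Genes known to respond to STAT3 or to the acute phase response were mostly higher after crush. In controls 15 rose and 1 fell of 17 tested, and in RaptorKOs 13 rose and 1 fell of 16 tested. Over all tested genes, 32.4% were called higher in controls and 30.5% in RaptorKOs. In each genotype 7 of the tested genes (Timp1, Pim1, Lcn2, Hp, Ccl2, Bcl3, and Cebpb) passed the filter only through 1 of the 2 groups, and of the others 9 of 10 rose in controls and 8 of 9 in RaptorKOs. The list holds Stat3, Socs3, and Osmr, which are described above. The largest rises were those of Timp1, a protease inhibitor (6.18 in controls and 6.11 in RaptorKOs), Fos (3.97 and 4.24), the chemokine gene Ccl2 (3.91 and 4.002), Il4ra in controls (3.44), and Bcl3 in RaptorKOs (3.40). Lcn2, which encodes the iron-binding lipocalin-2, was the gene that fell in both (-3.38 and -2.54), and is named here after its values were seen.

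Between injured genotypes 3 of 16 tested genes of this list were called, where 8.54% of all genes were. DESeq2 and edgeR's exact test each called 5, and 7 had an unadjusted p under 0.05. Between contralateral genotypes 1 of 11 was called, where 10.2% of all genes were. DESeq2 and the exact test each called 2 there, and 4 had an unadjusted p under 0.05. Gfap, an intermediate filament gene of SCs and astrocytes, was lower in RaptorKOs in contralateral (-1.12, SE 0.28, adjusted p = 0.0308) and in injured nerves (-2.89, SE 0.25, adjusted p = 0.000117). It stood at 21.7 ± 1.38 CPM in injured controls and at 2.89 ± 0.956 CPM in injured RaptorKOs, and its interaction was -1.76 (SE 0.37, adjusted p = 0.0219). In both comparisons Gfap passed the filter only through the controls, in which it was high. Without it, 0 of 10 genes were called in contralateral and 2 of 15 in injured nerves. Myc (0.83, SE 0.12, adjusted p = 0.00177) and the kinase gene Pim1 (0.56, SE 0.15, adjusted p = 0.0413) were higher in injured RaptorKOs.

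As a description of likeness, each tested member was compared with 12851 genes by Pearson's r of log2 CPM over the 13 libraries, in which the crush sets most of the variation. Cntf was most like Elovl6, a fatty acid elongase gene (r = 0.999), Mras (0.998), and D430041D05Rik (0.998). Clcf1 was most like Nasp (0.99), Galns (0.99), and Cmtm3 (0.99), and Lif was less closely matched, by Gamt (0.91), Cyp2j6 (0.89), and Ptn (0.88). Osm was most like Ier2, Htr2b, and Gpr34 (each 0.96), Osmr like Klf6 (0.95), Usp3 (0.93), and 4931428F04Rik (0.92), and Il6st like Lima1, Col8a1, and Tbc1d2b (each 0.95). With the group means subtracted, the closest gene was another one for every member, for instance Vezt for Cntf (0.96) and Zmat4 for Lif (0.92). The highest such r ranged from 0.903 for Osmr to 0.962 for Il6st. Each is the highest of 12851 values over 13 libraries, and was not tested against what so many genes give by chance.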

How the data were processed

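Nerves, groups, and comparisons are as described above. The authors trimmed reads with Trimmomatic, aligned them to GRCm38, quantified genes with RSEM (version 1.2.22), and deposited expected counts that are not normalized for depth. Of the nonzero values, 24.93% to 27.95% per library were not whole, since RSEM divides a read with more than 1 match among genes, and all were rounded here. Symbols were matched for 40550 of 40787 genes, and 17175 genes had no count. All value columns were used. The library kit keeps strand, and the strand setting of the counting is not given in the sources used here. The deposited reads were not realigned.

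The statistics used edgeR 4.0.16 and DESeq2 1.42.0 under R 4.3.3, and the plots matplotlib 3.10.9. Scaling was by TMM, and CPM are on 1 scale over all 13 libraries. Each comparison was fitted with edgeR's quasi-likelihood test on its own libraries (the interaction on all 13, with no fold limit), and p-values were adjusted by Benjamini-Hochberg across every gene tested. All adjusted p-values, SEs, and log2 fold changes come from these fits (prior count 0.125) unless another tool is named. Intervals of pooled counts are exact Poisson intervals and cover counting error only. Exon lengths are unions over GENCODE M21 transcripts, and promoters are from RefSeq. Alternatives were DESeq2, RLE factors, other count filters, another prior count, edgeR's exact test, 1 fit for all libraries, a replicate block, and leaving out libraries. The fits were tested on simulated data.

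The members, gene lists, and markers were chosen with earlier results of these data known. Some genes of these lists are not reported here. All members are named. Of each other list at most 4 called genes per comparison are named, those with the largest change, besides defining genes, and for each member the 3 genes most like it.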

Additional observations from a re-analysis of the deposited data

Results flagged for a closer look

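In RaptorKO contralateral nerves, the group of 4 libraries, 3 members had a library far from the others by Dixon's ratio of the gap to the nearest library over the whole range (beyond the 95% critical value for 4 libraries, which chance exceeds in about 1 of 20 groups). RaptorKO contralateral 4 was the high one for Il6 (ratio 1.0, 0.515 CPM against 0 in the other 3) and for Osm (ratio 0.936, 1.68 CPM against 0 to 0.107). With the other 3 libraries at 0, the Il6 ratio is 1.0 whatever the count in the high library, which was 4. For Osm the counts were 1, 0, 0, and 13. The critical value holds for normally distributed values and not for counts near 0, so no conclusion is drawn from these 2 ratios. RaptorKO contralateral 4 had 8200458 counts, the lowest total of all libraries, and also the highest sums of its group for the neutrophil (4.12 CPM against 1.24 to 1.92), T cell (4.51 against 1.07 to 2.19), and macrophage markers (288 against 220 to 272). The part of these cells was not tested. RaptorKO contralateral 3 was the low one for Lif (ratio 0.898, 12.6 CPM against 18.6 to 19.2), and without it the Lif interaction passed the threshold. It had the highest adipocyte (133 CPM against 0 to 9.175) and perineurial marker sums (1622 against 926 to 1211) of its group. Its sums were the lowest for SC (1036 against 1181 to 1291) and myelin markers (41900 against 44350 to 50410). The part of these cells in its Lif value was not tested.

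The crush effect on Lifr differed between the genotypes by 0.79 on the log2 scale, in the test of the difference itself (edgeR's quasi-likelihood test, adjusted p = 0.0149). Lifr was lower after crush in every injured library of both genotypes, by less in RaptorKOs.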

How the results depend on the processing

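Of 530 alternative values for single members, 494 kept direction and side of the threshold, 9 lost a call, 6 gained one, and 21 changed sign. These are not all separate checks. Between genotypes, leaving out control replicate 3 is the same fit as leaving out its single library. The other prior count changes fold changes but not p-values. No call changed sign. The 21 were values that were not called: Lif after crush in RaptorKOs (0.013 with the replicate block, and -0.176 to 0.047 when single libraries were left out), Lif between contralateral genotypes (-0.098 to 0.2 without single libraries, -0.098 without control replicate 3), Il6st between contralateral genotypes (-0.007 and -0.011 with a filter of 10 counts or none, -0.014 with 1 fit for all libraries, -0.001 with the replicate block, -0.148 to 0.091 without single libraries), Lifr between contralateral genotypes (-0.007 with the replicate block, -0.007 to 0.066 without single libraries), Il6st between injured genotypes (-0.054 to 0.166 without single libraries), and the interactions of Osm (2.16 with the replicate block, -4.03 to 2.28 without single libraries) and Il6st (-0.068 to 0.218 without single libraries, -0.014 without control replicate 3). The causes were not tested.

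The number of members called was 6 after crush in controls (5 to 6 without single libraries), 6 in RaptorKOs (4 to 6, as Osm missed the filter without RaptorKO injured 1 or 3 and Il6st also lost its call without RaptorKO injured 3), 1 between contralateral genotypes (1 in each case), 2 between injured genotypes (2 to 4, with 4 without RaptorKO injured 2), and 1 for the interaction (0 to 2, with 0 without control injured 2 and 2 without RaptorKO contralateral 3). For the interaction, DESeq2 gave 2 and leaving out both libraries of control replicate 3 gave 0. With the replicate block the counts were 6, 6, 1, 2, and 1, the same as without it, and no member's call changed. Same-numbered libraries of a genotype had correlated deviations from their group means in 4 of 6 pairs (r above 0.1), and 2 of 3 injured libraries of each genotype correlated best with their own number. Same-numbered contralateral libraries of different genotypes, which cannot be from 1 mouse, gave r of 0.072, 0.254, and 0.301. For injured libraries of different genotypes r was 0.027, 0.014, and -0.05. No source used here states that equal numbers mark 1 mouse, although the study calls the contralateral nerves the corresponding ones. The block was therefore an alternative. In the genotype comparisons the block joined same-numbered libraries of different genotypes, so it pairs no nerves of 1 mouse there. In the crush comparisons and the interaction it joined same-numbered libraries of 1 genotype. Over all genes the block raised the calls between contralateral genotypes from 1208 to 1811. Leaving out control replicate 3 lowered calls (669 between contralateral, 672 between injured genotypes, 113 instead of 318 for the interaction). Leaving out other control libraries lowered them too. Between contralateral genotypes 596 and 524 were called without control contralateral 1 and 2. Between injured genotypes 652 and 447 were called without control injured 1 and 2. The interaction had 132 calls without control contralateral 2 alone. DESeq2 gave 598 interaction calls. With no count filter 1556 genes were called between injured genotypes instead of 1028. Il6, Il11, and Osm had few counts, and each missed the count filter in some or all comparisons.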
